A study of Mus musculus with 12 samples.

Results

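Clodronate liposomes (Lip-C) were compared with empty liposomes (Lip-O) in mice whose olfactory bulbs were left in place, using 3 arrays per treatment. These 6 arrays are the ones whose titles give a sham operation, out of 12 in the study. The other 6 had the same liposome treatments and had both olfactory bulbs removed (OBX). All mice were wild-type C57BL/6J males aged 6 weeks. Liposomes were given into the nose in 50 µl daily for 3 days and into a tail vein in 200 µl on the first and the third of these days. Surgery fell on the second day, and the olfactory epithelium was dissected 48 h after it. The 2 sham groups therefore shared strain, age, sex, anaesthesia, injection scheme and sham surgery, and differed in whether the liposomes carried clodronate. The sources used here do not say whether an array holds RNA of 1 mouse or of a pool, so p-values measure the spread between these samples. The comparison addresses what liposomes meant to deplete macrophages change in olfactory tissue with intact bulbs.

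Liposomes are taken up by phagocytes, and clodronate set free inside these cells kills them. Clodronate is also a bisphosphonate, a class of drugs that bind bone mineral and act on osteoclasts, the bone-resorbing cells. The olfactory epithelium renews its sensory neurons throughout life: basal stem cells give rise to neuronal precursors, which divide and mature into immature and then mature olfactory sensory neurons. Sustentacular cells and Bowman glands support these neurons, and the epithelium lies on connective tissue, cartilage and bone of the nasal turbinates. In whole tissue, fewer cells of a type and less RNA per cell cannot be told apart.

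The deposited values are linear probe set signals, which were compared as log2(signal + 16) for 13628 genes. The brightest probe set stands for each gene. Dissection of the labelled tissue was checked on Omp, the marker of mature olfactory sensory neurons, and on Cyp2g1, a cytochrome P450 of olfactory support cells. Omp signals ran from 14449 to 18213 and Cyp2g1 signals from 14210.4 to 17236 on the sham arrays. Bone and connective tissue transcripts were also part of the dissected tissue: on every sham array Ibsp was at 1026 or above and Col1a1 at 1308 or above. Arrays of 1 group correlated at r = 0.97 to 0.9846 with Lip-O and 0.9831 to 0.9857 with Lip-C. In a principal component analysis of the 6 arrays, PC1 (36% of the variance) placed the Lip-O arrays from 10.17 to 22.89 and the Lip-C arrays from -18.67 to -15.76. Lip-O sham replicate 1 stood apart on PC2 (29.1%), at 32.13 against -14.21 to 9.4 for the others. It had the highest signals for Timp1, Fos and Cd68 and the lowest for Col1a1 and Mpo of the Lip-O arrays. Where leaving it out changes a list's count of calls, or the sign of a median given, the value without it is printed.

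Lip-C changed 286 of 13628 genes in sham mice, 2.1% of those tested, at a limma adjusted p under 0.05: 175 genes rose (1.28%) and 111 fell (0.814%). Genes that fell moved further, with a median log2 change of -0.70 against 0.52 for those that rose. Of the 42 genes changed by at least 1 on the log2 scale, 29 fell and 13 rose. The genes with the largest falls were dominated by names known from bone, neuronal precursors and neuropeptides: Dmp1, Acp5, Ctsk, Ibsp, Mmp9, Sfrp4, Neurod1, Neurog1, Grp and Scg2 were among the top 15. Among the top 15 that rose were Ctsg, Prtn3 and Ms4a3 of myeloid progenitors and Chac1, Fgf21, Slc7a3, Nupr1 and Phgdh of the amino acid stress response. The Lip-C and Lip-O arrays did not overlap for any of the 286, and they did not overlap for 29.6% of all genes tested. At an unadjusted p under 0.05, 2988 genes (21.9%) differed.

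**Figure D1:**
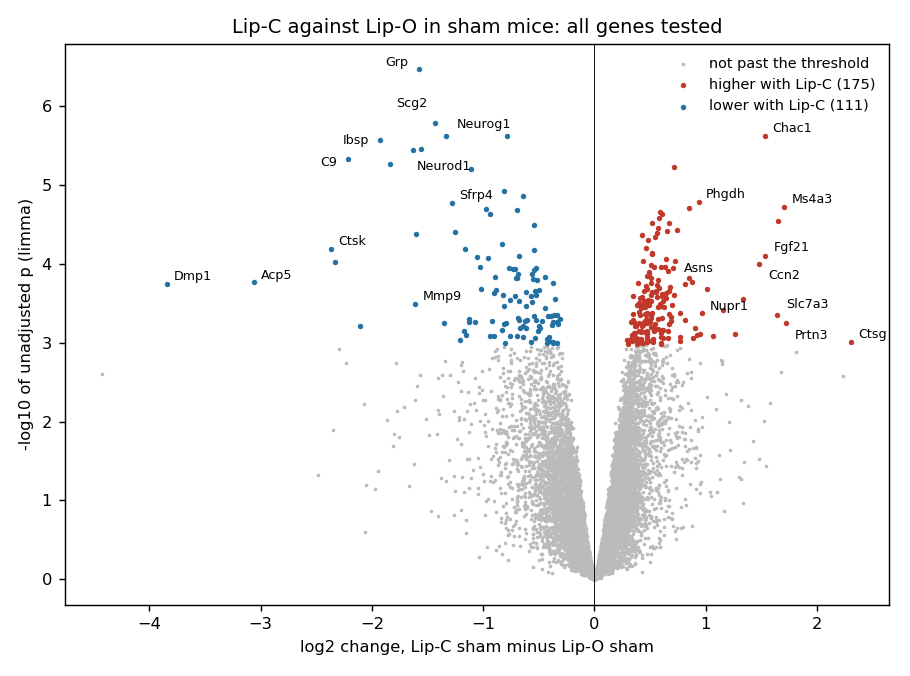
Log2 change (Lip-C sham minus Lip-O sham, horizontal) against the negative log10 of limma's unadjusted p (vertical) for 13628 genes, with 1 point per gene. The 175 genes that rose and the 111 that fell are coloured; Dmp1, Acp5 and Ctsk lie furthest to the left among coloured points and Ctsg furthest to the right.

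The number of calls depended on single arrays. Leaving out Lip-O sham replicate 1, 2 or 3 gave 96, 24 and 19 genes, and leaving out Lip-C sham replicate 1, 2 or 3 gave 169, 40 and 17. Without Lip-C OBX replicate 1 or 2, which enter only the estimate of the spread, 189 and 148 genes passed. In all 12 fits that left out 1 array, 14 genes passed. Of these, 9 fall under the rule for named genes: Neurog1, Neurod1, Grp, Scg2, Ibsp, C9, Has2, Chac1 and Phgdh. Oprk1, Ankrd16, Calml4 and Tmem35a also passed in all 12, and are named after their values were seen. Fitting the 6 sham arrays alone gave 30 genes higher and 49 lower.

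**Figure D2:**
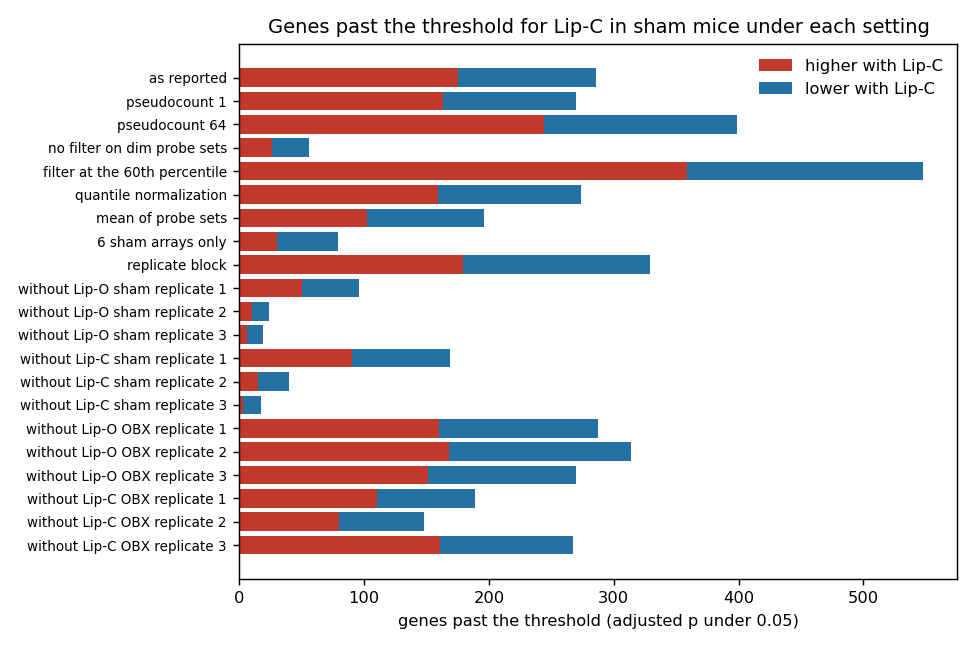
Number of genes past the threshold (horizontal, stacked by direction) for Lip-C against Lip-O in sham mice, in the reported fit and in each alternative (vertical). The count is 286 as reported, 17 without Lip-C sham replicate 3 and 548 with a stricter filter on dim probe sets.

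Of 28 measured genes of olfactory neuronal precursors, 7 fell with Lip-C and 1 rose, and 22 had negative changes. Over all 13628 genes 0.814% fell, 1.28% rose and 6735 had negative changes, the background for this and each later list. The median log2 change of the list was -0.37, against 0.00 over all genes. Without Lip-O sham replicate 1, 4 fell and none rose, with a median of -0.41. Neurog1, the proneural factor that commits precursors to the neuronal fate, had signals of 289, 242.3 and 222.6 with Lip-O and 94.8, 102.1 and 73 with Lip-C. Every Lip-C array was below every Lip-O array, and the mean was 2.79-fold lower. Neurod1, a transcription factor that acts just after it, had signals of 837.7, 889.3 and 925.1 with Lip-O and 395, 239 and 218 with Lip-C. The lowest Lip-O array was above all Lip-C arrays by more than the range within either group, and the mean was 3.11-fold lower. Both genes kept the call without any 1 array. Averaging its probe sets in place of taking the brightest gave Neurog1 an adjusted p of 0.056.

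Other transcription factors of the lineage fell by less. Hes6, a bHLH factor that promotes neuronal differentiation, had signals of 958.3 to 1211 with Lip-O and 631.7 to 698.3 with Lip-C, a log2 change of -0.71 ± 0.12 (SE; adjusted p = 0.0253). St18, a zinc finger factor of precursors, went from a mean signal of 101.4 ± 14.4 (SD, n = 3) to 42.0 ± 12.2, which is under the arrays' 40th percentile of 70.7. Elavl4, an RNA-binding protein of young neurons, fell by 0.54 ± 0.11 (adjusted p = 0.0385). Sox2, a factor of basal and sustentacular cells, fell by 0.50 ± 0.10 (adjusted p = 0.0408). Ebf4, a member of the Olf/Ebf factors that bind olfactory promoters, was the gene of this list that rose, by 0.66 ± 0.14 (adjusted p = 0.0476). In a fit with the replicate number as a block, Sox2 (adjusted p = 0.0517) and Ebf4 (adjusted p = 0.0522) missed the threshold. Sox2, Ebf4 and Elavl4 also lost the call without any 1 of the 6 sham arrays (adjusted p from 0.0692 to 0.135) and without Lip-C OBX replicate 2. Elavl4 and Ebf4 lost it without Lip-C OBX replicate 1, and Ebf4 without Lip-O OBX replicate 1. Hes6 lost it without any sham array but Lip-O sham replicate 1 (0.0544 to 0.0911), and St18 without any but Lip-C sham replicate 1 (0.0592 to 0.0901).

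Notch signalling, in which the ligands Jag and Dll on 1 cell activate Notch receptors on its neighbour, restrains neuronal differentiation. Of 27 measured pathway genes, 2 rose and 2 fell, and the median change was 0.07. The 2 that fell, Mfng and Hes6, were also counted among the precursor genes. Mfng, a glycosyltransferase that modifies Notch receptors, had signals of 233.9, 304.1 and 293.7 with Lip-O and 144.1, 128.2 and 136.8 with Lip-C. The groups were apart on all arrays, and the mean was 2.03-fold lower (adjusted p = 0.0137). The ligand Jag2 rose from 567.3 ± 3.68 to 820.9 ± 59.3, and the coactivator Maml1 rose by 0.37 ± 0.08 (adjusted p = 0.0475). With the replicate block Maml1 had an adjusted p of 0.057. Mfng and Jag2 lost the call without Lip-O sham replicate 2 or 3 or Lip-C sham replicate 2 or 3 (adjusted p from 0.052 to 0.0753). Maml1 missed it without any 1 sham array (0.077 to 0.136), without Lip-O OBX replicate 2 or 3 and without Lip-C OBX replicate 2 or 3. Averaging its probe sets gave Jag2 an adjusted p of 0.123 and Maml1 one of 0.0627. The list had 1 gene that rose without Lip-O sham replicate 1.

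Dividing cells were represented by 29 measured genes of mitosis. None passed the threshold in limma, yet 28 had negative changes, with a median of -0.56. Summed over the list, Lip-O signals ran from 7947 to 12254 and Lip-C signals from 6644 to 7338, so the groups did not overlap. Ube2c, a ubiquitin-conjugating enzyme of anaphase, had signals of 352.2, 625.7 and 464.8 with Lip-O and 283.9, 250.1 and 208.5 with Lip-C (-0.89 ± 0.26, adjusted p = 0.0944). With the replicate block its adjusted p was 0.0467, and 2 genes of the list fell. Mki67, a nuclear protein of cycling cells, overlapped between groups, at 482.4 to 1202 with Lip-O and 580.3 to 794.3 with Lip-C. Tacc3, a spindle protein, was the gene with a positive difference (0.26 ± 0.17). None of 31 measured DNA replication genes passed, and their median was -0.11. Stil, Plk4 and Cep152, which act together in building new centrioles, are outside the lists and were chosen after their values were seen. Stil fell from 273.5 ± 31.5 to 113.9 ± 19.2 (adjusted p = 0.0215), Plk4 by 0.89 ± 0.16 (adjusted p = 0.0274) and Cep152 by 0.95 ± 0.15 (adjusted p = 0.0238). All 3 lost the call without Lip-O sham replicate 2 or 3 or Lip-C sham replicate 2 or 3 (0.052 to 0.0941), and Plk4 also without Lip-O sham replicate 1 (0.0592).

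Among the lists of later neuronal stages, only that of odorant receptors held a call. None of 22 measured genes of immature neurons passed, with a median of -0.12. Gap43, a growth cone protein, had signals of 3503 to 4455 with Lip-O and 3104 to 4167 with Lip-C, which overlap. None of 21 measured genes of mature neurons passed, with a median of 0.06, and Omp differed by -0.11 ± 0.17 (adjusted p = 0.741). Of 30 odorant receptor genes, 1 fell: Olfr288 had signals of 138.4, 77.6 and 212.6 with Lip-O and 29.8, 5.9 and 9.7 with Lip-C, under the 40th percentile. It lost the call without Lip-O sham replicate 1 or 3 or Lip-C sham replicate 2 or 3 (adjusted p from 0.0572 to 0.0941). Summed signals of the receptor list overlapped, at 11033 to 11528 with Lip-O and 11144 to 11941 with Lip-C.

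Neuropeptide genes fell in a small group. Of 17 measured, Grp, Scg2 and Nmb fell, none rose, and the median was -0.11. Grp encodes gastrin-releasing peptide, a bombesin-like peptide, and had signals of 295.1, 280.9 and 216.2 with Lip-O and 89.8, 75.5 and 68.2 with Lip-C. No Lip-C array came near the Lip-O arrays, and the mean was 3.39-fold lower (adjusted p = 0.00469). Scg2, a granin of dense-core vesicles, went from 324, 396.7 and 321 to 126.1, 110.1 and 117.8, again with no overlap and a mean 2.94-fold lower. Nmb, another bombesin-like peptide, fell by 0.56 ± 0.11 (adjusted p = 0.0331) and missed the threshold without any sham array but Lip-O sham replicate 1 (adjusted p from 0.0742 to 0.109). Oprk1, the kappa opioid receptor, fell from 254.0 ± 25.6 to 109.1 ± 13.3 (adjusted p = 0.00719). Averaging its probe sets gave Oprk1 a log2 change of -0.73 and ended the call (adjusted p = 0.0557).

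**Figure D3:**
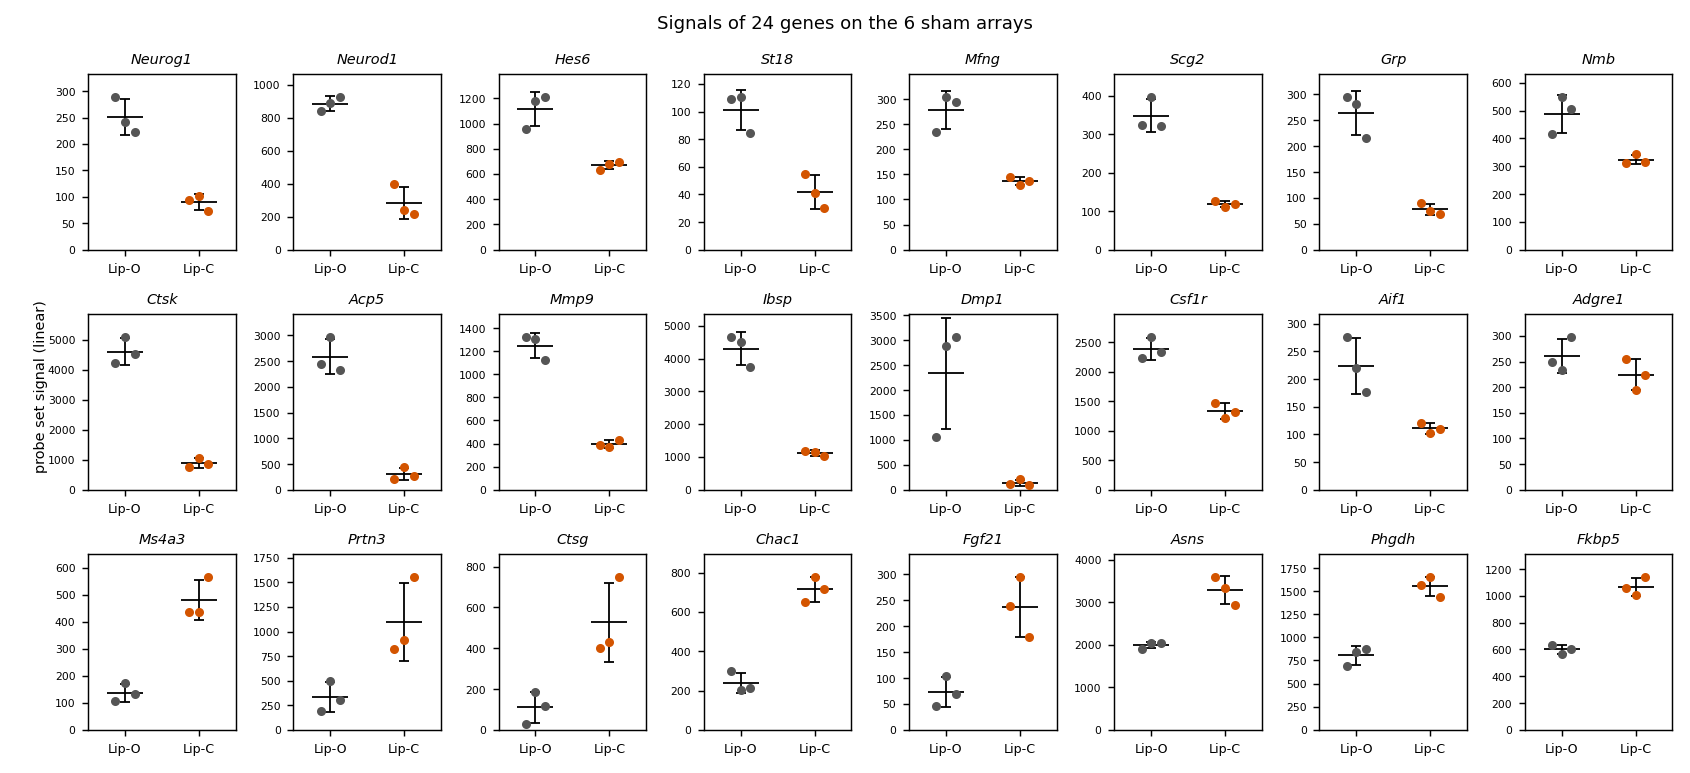
Linear signal of 24 genes (vertical axis of each panel, starting at 0) on the 3 Lip-O and 3 Lip-C sham arrays, 1 point per array in the order of replicate number; lines are the mean and bars the SD. The arrays of the groups overlap for Adgre1 and for no other gene shown, and Dmp1 is lower on Lip-O sham replicate 1 than on the other Lip-O arrays.

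Osteoclasts resorb bone by secreting acid and the proteases that digest its matrix. Of 19 measured genes, Acp5, Ctsk and Mmp9 fell and none rose, whereas the list's median was 0.03. Acp5, the tartrate-resistant acid phosphatase that marks osteoclasts, had signals of 2442, 2969.9 and 2337 with Lip-O and 216.5, 436.5 and 266.9 with Lip-C. The lowest Lip-O array was several times above the highest Lip-C array, and the mean was 8.42-fold lower (adjusted p = 0.0284). Ctsk, the collagen-digesting protease of these cells, had signals of 4212, 5089 and 4516 with Lip-O and 752.2, 1057 and 847.3 with Lip-C, a mean 5.2-fold lower. Mmp9, a gelatinase of osteoclasts and neutrophils, was 1323, 1302 and 1122 with Lip-O against 387.5, 372.3 and 434.2 with Lip-C. Other members did not pass the test. Atp6v0d2, a subunit of the proton pump, was lower on all Lip-C arrays (-0.88, adjusted p = 0.0996), as was Dcstamp, a protein of osteoclast fusion, at 34.5, 72.7 and 43.1 against 119.6, 101.1 and 127.7 (adjusted p = 0.0726). Clcn7, the chloride transporter of the resorbing membrane, differed by 0.21 and Nfatc1, the transcription factor of osteoclast formation, by 0.14. Acp5 and Mmp9 lost the call without any 1 sham array (adjusted p from 0.0592 to 0.0998), and Ctsk without Lip-O sham replicate 2 or 3 or Lip-C sham replicate 2 or 3 (0.052 to 0.0865). Without Lip-O sham replicate 1, 1 member passed.

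Bone is built by osteoblasts and maintained by osteocytes. Of 18 measured osteoblast and osteocyte genes, 2 fell, none rose and 17 had negative changes, with a median of -0.81. Summed signals ran from 36492 to 64658 with Lip-O and from 20878 to 28062 with Lip-C. Ibsp, bone sialoprotein of the mineralising matrix, had signals of 4659.5, 4512 and 3732 with Lip-O and 1186, 1144 and 1026 with Lip-C. The groups were far apart, the mean was 3.85-fold lower (adjusted p = 0.00612), and the call held without any 1 array. Dmp1, a matrix protein of osteocytes, was 1061, 2879 and 3065 with Lip-O and 116.7, 210.2 and 92.8 with Lip-C, a mean 16.7-fold lower (adjusted p = 0.0284). Its Lip-O arrays were uneven, with replicate 1 at less than the others, and its call was lost without any sham array but that one (adjusted p from 0.0619 to 0.1). Phex, a peptidase of osteocytes, went from 190.7, 620.3 and 503.8 to 54.3, 84.2 and 66.8, the latter with a mean under the 40th percentile (adjusted p = 0.0531). Col1a1, the main collagen chain of bone, went from 10157 ± 5174 to 2289.7 ± 1040.0 (adjusted p = 0.0886). With the replicate block, 4 members fell, Phex (adjusted p = 0.0366) and Pdpn (adjusted p = 0.0329), a membrane protein of young osteocytes, among them. Without Lip-O sham replicate 1 the count was 3 and the median -1.04.

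Further matrix genes were among the largest falls. Sfrp4, a secreted Wnt antagonist, had signals of 1050.4, 1138 and 1160.3 with Lip-O and 411.3, 441.2 and 502.7 with Lip-C, a mean 2.47-fold lower (adjusted p = 0.0137). It lost the call without Lip-O sham replicate 2 (0.06) or 3 (0.0594). Has2, a hyaluronan synthase, went from 214.9 ± 47.2 to 61.9 ± 9.5, under the 40th percentile, and passed without any 1 array. Timp1, an inhibitor of matrix metalloproteinases, was 2102, 685.7 and 650 with Lip-O and 264.3, 187.6 and 200.7 with Lip-C (-2.11 ± 0.44, adjusted p = 0.0409). Lip-O sham replicate 1 was by far the highest, but the other Lip-O arrays were also above all Lip-C arrays. Timp1 lost the call without any 1 sham array (adjusted p from 0.0655 to 0.124) and without Lip-C OBX replicate 1 or 2. Of 28 measured fibroblast and matrix genes none passed and 24 had negative changes, with a median of -0.43; without Lip-O sham replicate 1, 1 fell. Of 23 cartilage genes none passed, and their summed signals overlapped, at 4785 to 7355 with Lip-O and 5708 to 6966 with Lip-C. C9, a component of the complement pore, fell from 922.9, 578.4 and 671.8 to 91, 168.4 and 179.7, a mean 4.95-fold lower. Rln1, the hormone relaxin, went from 81.6 ± 10.9 to 22.7 ± 9.47, under the 40th percentile. It had an adjusted p of 0.0532 with the replicate block and lost the call without any 1 sham array (0.0745 to 0.125), without Lip-O OBX replicate 1 or 3 and without Lip-C OBX replicate 1.

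Macrophages are the cells the treatment was meant to remove. Of 41 measured macrophage and monocyte genes, 2 fell and none rose, and 29 had negative changes with a median of -0.17. Csf1r, the receptor for the macrophage growth factor CSF1, had signals of 2231, 2589 and 2328 with Lip-O and 1474, 1209.8 and 1309.8 with Lip-C. The groups did not overlap, and the mean was 1.79-fold lower (adjusted p = 0.0426). Aif1, which encodes the macrophage protein Iba1, was 276, 219.1 and 175.8 against 120.5, 102.4 and 109.2, a mean 2.02-fold lower (adjusted p = 0.047). Averaging its probe sets gave Csf1r an adjusted p of 0.103. In that fit Aif1 kept its log2 change of -0.90 and had an adjusted p of 0.052. Quantile normalization gave Aif1 0.0544. Both calls were lost without any 1 of the 6 sham arrays (adjusted p from 0.0639 to 0.136), without Lip-O OBX replicate 2 and without Lip-C OBX replicate 1 or 2. Without Lip-O sham replicate 1 the list had no call and a median of -0.03. Osteoclasts also depend on CSF1 and carry its receptor, and their genes Acp5, Ctsk and Mmp9 fell in the same arrays; the part of osteoclasts in the Csf1r result was not tested. Summed macrophage signals overlapped, at 22884 to 36834 with Lip-O and 22693 to 31781 with Lip-C.

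Most other macrophage genes overlapped between groups. Of the 41 measured, 6 were lower on all Lip-C arrays, Csf1r and Aif1 among them, and 3 were higher on all. Over all genes tested these shares were 13.5% and 16.2%. Adgre1, the F4/80 antigen, had signals of 249.7, 233.4 and 297.9 with Lip-O and 254.1, 194.2 and 224.4 with Lip-C. Cd68, a lysosomal glycoprotein of phagocytes, was 566.4, 387.2 and 324 against 418.6, 326.2 and 307.3. The mannose receptor Mrc1, a marker of resident macrophages, was lower on all Lip-C arrays, at 246.7 to 304 against 335.6 to 392.7, without passing (-0.44 ± 0.15, adjusted p = 0.135). Lyz2, the lysozyme of myeloid cells, differed by 0.04 ± 0.29. None of 13 measured class II and dendritic cell genes passed (median -0.30), nor any of 11 lymphocyte genes (-0.25) or 4 mast cell genes (-0.21). Of 24 lysosomal genes none passed, and the median was -0.08. Dab2, an endocytic adaptor found in macrophages and epithelia, lies outside the lists and was chosen after its values were seen; it fell from 1590.1 ± 175 to 800.9 ± 92.0 (adjusted p = 0.0137) and lost the call without Lip-O sham replicate 2 or 3 or Lip-C sham replicate 3 (0.06 to 0.0642).

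The proteases and antimicrobial proteins of early myeloid granules are made by granulocyte and monocyte progenitors of the bone marrow. Of 13 measured genes of this kind, Prtn3, Ctsg and Ms4a3 rose, none fell and 12 had positive changes. The median was 1.35, above that of every other list. With Lip-O sham replicate 1 left out, 2 of them rose. Ms4a3, a membrane protein of myeloid progenitors, had signals of 106.3, 172.3 and 134.2 with Lip-O and 437.4, 436.9 and 566.2 with Lip-C. The groups were well apart and the mean was 3.49-fold higher (adjusted p = 0.0137). Prtn3, proteinase 3, was 190.3, 496.1 and 307.7 against 825.1, 910.1 and 1554, and Ctsg, cathepsin G, was 28.5, 183 and 116.8 against 403.3, 429.4 and 748.9. Mpo, myeloperoxidase, was higher on all Lip-C arrays, at 979.2 to 2374 against 98.1 to 599.8, without passing (adjusted p = 0.0656). With the replicate block Prtn3 (adjusted p = 0.0524) and Ctsg (0.0613) missed the threshold, and Chil3, a chitinase-like protein of myeloid cells, reached 0.0465. Ms4a3 lost the call without Lip-O sham replicate 3 (0.0594) or Lip-C sham replicate 3 (0.0629). Prtn3 lost it without any 1 sham array (0.0585 to 0.125), without Lip-O OBX replicate 1 and without Lip-C OBX replicate 2, and Ctsg without any 1 of the 12 arrays. Of 13 genes of mature neutrophils, Mmp9 fell and the median was 0.25. None of them passed without Lip-O sham replicate 1, when the median was 0.71. S100a8, an abundant calcium-binding protein of neutrophils, overlapped between the groups, at 6028 to 12979.9 with Lip-O and 7754 to 14797 with Lip-C. Of 8 measured erythroid genes, which also mark marrow, none passed, and their summed signals overlapped, at 654 to 2715 and 840 to 2350.

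The list with the most genes that rose was that of the response to amino acid shortage. In this response a lack of amino acids raises translation of the factor ATF4, which activates amino acid synthesis, transport and stress genes. Of 33 measured genes, 11 rose, none fell and 30 had positive changes, with a median of 0.38. Summed signals were 62614 to 67030 with Lip-O and 77301 to 81395 with Lip-C. Without Lip-O sham replicate 1, 7 rose and the median was 0.40; with the replicate block 9 rose. Chromosome segments before 5 of the called genes hold the C/EBP-ATF composite motif to which ATF4 binds, and are shown because these genes moved together. Capitals mark the motif, spelled TGATGNAA, or TTNCATCA where it lies on the opposite strand; sequences are from RefSeq (GRCm38.p6), on the strand of the gene, 5′ to 3′.
Chac1: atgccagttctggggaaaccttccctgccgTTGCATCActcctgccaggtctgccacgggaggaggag
Asns: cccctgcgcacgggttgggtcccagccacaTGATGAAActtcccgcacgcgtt
Fgf21: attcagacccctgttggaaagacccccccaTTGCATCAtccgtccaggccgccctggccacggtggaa
Nupr1: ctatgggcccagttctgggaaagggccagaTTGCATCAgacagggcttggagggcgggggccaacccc
Pck2: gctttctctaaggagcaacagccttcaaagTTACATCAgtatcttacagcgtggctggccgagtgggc
The Chac1 window is chr2:119351019-119351086 on the plus strand. The Asns window is chr6:7693210-7693262 on the minus strand. The Fgf21 window is chr7:45615592-45615659 on the minus strand. The Nupr1 window is chr7:126625543-126625610 on the minus strand. The Pck2 window is chr14:55540133-55540200 on the plus strand. The motif was searched on both strands in the 250 bases before each start. It was found before 5 of the 8 called ATF4 genes with a promoter in the table (62.5%) and 9 of 28 measured ones (32.1%), and before 2.53% of all measured genes and 3.91% of all genes in the table. The list was chosen around known targets of ATF4 and with earlier results of these data known. Its own motif share follows from that choice, and its count of calls may depend on it. A match describes the letters and not binding, and among all genes that rose 4.96% had one, against 6.52% of those that fell.

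Chac1, an enzyme that degrades glutathione, had signals of 299.4, 203.7 and 214.1 with Lip-O and 650.6, 777.3 and 715.8 with Lip-C. All Lip-C arrays were above all Lip-O arrays by more than the range of either group, the mean was 2.99-fold higher (adjusted p = 0.00612), and the call held without any 1 array. Fgf21, a hormone of the starvation response, was 46.7, 103.3 and 69.4 against 239.6, 294.8 and 179, a mean 3.25-fold higher (adjusted p = 0.0238). Asns, asparagine synthetase, was 1903, 2029.6 and 2049.9 against 3589, 3331 and 2923, a mean 1.65-fold higher (adjusted p = 0.0253). The groups were apart for both genes, with Fgf21 near the 40th percentile on the Lip-O arrays. Nupr1, a stress-induced nuclear protein, rose 1.92-fold, from 4826 ± 1308 to 9287 ± 1089. Pck2, mitochondrial phosphoenolpyruvate carboxykinase, rose by 0.50 ± 0.10 (adjusted p = 0.0393), with an adjusted p of 0.0532 under the replicate block and 0.393 when its probe sets were averaged. Fgf21 lost the call without Lip-O sham replicate 3 or Lip-C sham replicate 2 or 3 (0.0562 to 0.0806), and Asns without any 1 sham array (0.0534 to 0.0856). Nupr1 lost it without any sham array but Lip-O sham replicate 1 (0.0824 to 0.121), Pck2 without any 1 sham array (0.0765 to 0.133), and both without Lip-C OBX replicate 1 or 2.

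Of the amino acid carriers on this list, 3 rose. Slc7a3, a cationic amino acid carrier, had signals of 106.1, 127.6 and 115.8 with Lip-O and 296.3, 526.4 and 395.1 with Lip-C, a mean 3.48-fold higher (adjusted p = 0.0381). Slc7a1, the main cationic carrier, rose by 0.60 ± 0.08 and Slc7a5, the light chain of the large neutral amino acid exchanger, by 0.59 ± 0.08 (adjusted p = 0.0137 each). Slc7a11 (0.38), Slc3a2 (0.30), Slc38a2 (0.27) and Slc6a9 (0.51), further carrier genes of the list, did not pass (adjusted p from 0.0568 to 0.727). Eif4ebp1, a repressor of cap-dependent translation, rose by 0.67 ± 0.13 (adjusted p = 0.0381). Members at the head of the response did not differ beyond their spread: Atf4 itself differed by 0.08 ± 0.08 and Ddit3, the factor CHOP, by 0.12 ± 0.18. Trib3, a pseudokinase induced by it, was higher on all Lip-C arrays (1076 to 1287 against 653.4 to 956.6) without passing (adjusted p = 0.0673). With the replicate block Slc7a3 had an adjusted p of 0.0532. Slc7a5 lost the call without Lip-O sham replicate 2 or Lip-C sham replicate 3, and Slc7a1 without Lip-O sham replicate 2 or 3 or Lip-C sham replicate 3 (0.0562 to 0.074). Slc7a3 lost it without any sham array but Lip-C sham replicate 1 (0.0761 to 0.113) and without Lip-C OBX replicate 2. Eif4ebp1 lost it without any 1 sham array (0.0505 to 0.117), without Lip-C OBX replicate 1 or 2, and when its probe sets were averaged (0.0689).

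Of 14 measured serine and one-carbon genes, 3 rose and none fell, with a median of 0.31; without Lip-O sham replicate 1, 1 rose and the median was 0.17. Phgdh, which catalyses the entry step of serine synthesis, had signals of 690, 846.9 and 878.2 with Lip-O and 1562, 1652 and 1438 with Lip-C. No arrays overlapped, the mean was 1.93-fold higher (adjusted p = 0.0137), and the call held without any 1 array. Phgdh and Psat1 are also members of the ATF4 list and were counted there, so that Shmt2 is the further gene here. Psat1, the next enzyme, rose 1.81-fold (adjusted p = 0.0274), and Shmt2, the mitochondrial serine hydroxymethyltransferase, 1.4-fold (adjusted p = 0.0486). Psat1 lost the call without any 1 sham array (0.0619 to 0.0893), and Shmt2 without any 1 sham array (0.077 to 0.128) and without every OBX array but Lip-O OBX replicate 3. Averaging its probe sets gave Shmt2 an adjusted p of 0.385.

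Of 18 measured aminoacyl-tRNA synthetases, which charge tRNAs with amino acids, 1 rose and 14 had positive changes. Eprs, which charges glutamate and proline tRNAs, rose from 1340.4 ± 66.5 to 1798 ± 31.9 (adjusted p = 0.0339); averaging its probe sets gave 0.253. Of 20 genes of the unfolded protein response in the endoplasmic reticulum, Sel1l, an adaptor of protein degradation there, rose by 0.47 ± 0.08 and the list's median was -0.10. Hspa5, the chaperone BiP that rises when proteins misfold there, overlapped between groups, at 9238 to 11569.7 with Lip-O and 8389 to 9803 with Lip-C. With the replicate block, Pdia6, a disulfide isomerase of this list, fell (adjusted p = 0.0482). Eprs lost the call without any 1 sham array (0.065 to 0.117) and without Lip-C OBX replicate 2, and Sel1l without any sham array but Lip-C sham replicate 1 (0.0504 to 0.0993). Sel1l also lost it when its probe sets were averaged (0.0717).

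Glucocorticoids are stress hormones whose receptor binds DNA and switches on a set of genes in most tissues. Of 19 such genes measured, 1 rose, none fell and 17 had positive changes, with a median of 0.35; with the replicate block 4 rose. Fkbp5, a chaperone partner of the glucocorticoid receptor, had signals of 634, 563.4 and 607 with Lip-O and 1057, 1005 and 1141 with Lip-C. The groups were narrow and apart, and the mean was 1.78-fold higher (adjusted p = 0.0393). Tsc22d3, the protein GILZ, was 1479, 1308 and 1297 against 2314, 2732 and 2877, all higher with Lip-C, without passing (adjusted p = 0.0573). Zbtb16, a zinc finger factor, was 61.8 to 97.5 against 170.3 to 526.1 (adjusted p = 0.0544, and 0.0482 with the replicate block). Fkbp5 lost the call without any 1 sham array (0.0689 to 0.128), without Lip-C OBX replicate 1 or 2, and when its probe sets were averaged (0.122). Without Lip-O sham replicate 1 the list had no call and a median of 0.42. Klf15, another target of the receptor, lies outside the list and was chosen after its values were seen; it rose from 553.4 ± 55.6 to 1056 ± 173 (adjusted p = 0.0416). Its adjusted p was 0.0563 with the replicate block and 0.0505 to 0.133 without any 1 sham array, and leaving out Lip-C OBX replicate 1 or 2, or replicate 3 of Lip-O OBX, also ended the call.

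Other large rises fell in no single list. Ccn2, connective tissue growth factor, had signals of 1854, 1448 and 1598 with Lip-O and 4370.4, 4422 and 4904 with Lip-C. No array overlapped and the mean was 2.79-fold higher (adjusted p = 0.0253), with the call lost without Lip-O sham replicate 2 or 3 or Lip-C sham replicate 2 or 3 (0.0718 to 0.0941). Cyp1a1, a cytochrome P450 induced by the aryl hydrocarbon receptor, rose 2.31-fold (adjusted p = 0.0358) and lost the call without any sham array but Lip-C sham replicate 2 (0.0588 to 0.113) and without Lip-C OBX replicate 1 or 2. Rims3, a presynaptic protein, rose 2.03-fold (adjusted p = 0.0305, and 0.0819 when its probe sets were averaged). Myrf, a membrane-bound transcription factor, went from 20.8 ± 6.21, under the 40th percentile, to 98.6 ± 7.60. Tmem86b, Gpx5 and AU015791 likewise rose from group means of 46.2, 36.7 and 30.5 to 141.9, 91.2 and 87.4. Rims3, Gpx5 and AU015791 lost the call without any sham array but Lip-O sham replicate 1 (0.0642 to 0.14), Gpx5 also without every OBX array but Lip-O OBX replicate 1 and AU015791 without any 1 OBX array. Tmem86b lost it without any sham array but Lip-C sham replicate 1 (0.0678 to 0.103), and Myrf without Lip-O sham replicate 3 or Lip-C sham replicate 2 or 3 (0.052 to 0.0682). Vegfa, the endothelial growth factor, rose from 252.6 ± 46.9 to 445.3 ± 106 and was the gene called among 27 growth factors. Cdh5, the cadherin of endothelial junctions, was the gene called among 16 endothelial genes, rising by 0.52 ± 0.11. No endothelial gene passed without Lip-O sham replicate 1. With the replicate block Hbegf, a growth factor of the EGF family, passed among the growth factors (0.64, adjusted p = 0.0482), and averaging its probe sets gave Vegfa 0.12. Vegfa and Cdh5 had an adjusted p over 0.05 with the replicate block (Vegfa 0.0604, Cdh5 0.0532) and without most single arrays (up to 0.138 and 0.126).

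Krt14, a keratin of horizontal basal cells, the reserve stem cells, had signals of 433.3, 428.2 and 339 with Lip-O and 256.2, 190 and 177.5 with Lip-C, a mean 1.92-fold lower (adjusted p = 0.0311). It was the gene called among 15 of that list, and Krt5, its partner keratin, differed by -0.29 ± 0.16 (adjusted p = 0.321). Of 20 sustentacular genes 1 fell: Aldh1a7, an aldehyde dehydrogenase, was 4833, 4647 and 4907 with Lip-O and 2933, 3161 and 3119 with Lip-C. The groups were tight, and the mean was 1.56-fold lower (adjusted p = 0.0136). Crabp1, which binds retinoic acid, fell by 0.67 ± 0.13 and Aldh1a3, which makes it, by 0.69 ± 0.14, so that with Aldh1a7 3 of 16 measured retinoid genes fell. Without Lip-O sham replicate 1, 1 of them passed. Krt14 lost the call without any sham array but Lip-C sham replicate 1 (0.0689 to 0.103), Aldh1a7 without Lip-O sham replicate 3 or Lip-C sham replicate 3 (0.0594 and 0.0562), Crabp1 without any 1 sham array and Aldh1a3 without any but Lip-C sham replicate 1 (0.0592 to 0.114). Crabp1 and Aldh1a3 also lost it without Lip-C OBX replicate 2, and Aldh1a3 without Lip-C OBX replicate 1 and when its probe sets were averaged (0.0807).

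No gene of the lists of motile cilia and of Bowman glands passed. Of 26 measured genes of motile cilia, 25 had negative changes, with a median of -0.28 and summed signals of 41423 to 43941 with Lip-O and 34626 to 37541 with Lip-C. Spag16, Ccdc103 and Morn5, known from cilia and flagella, lie outside that list and were chosen after their values were seen. Spag16 fell by 0.53 ± 0.11 (adjusted p = 0.0393), Ccdc103 by 0.55 ± 0.09 (0.0257) and Morn5 by 0.72 ± 0.13 (0.0312). Spag16 and Morn5 lost the call without any 1 sham array (0.0522 to 0.13), Ccdc103 without any but Lip-C sham replicate 1 or 2 (0.0636 to 0.0941), and Spag16 when its probe sets were averaged (0.431). Of 19 genes of Bowman glands and mucus none passed, and 15 had negative changes (median -0.14). Dmbt1 differed by -1.94 with overlapping arrays (adjusted p = 0.211), and Bpifb1 by -0.86 without overlap (adjusted p = 0.1945). Muc5b, a gel-forming mucin, was 7282, 3033 and 3125 with Lip-O and 8935, 7873 and 8109 with Lip-C (adjusted p = 0.0821, and 0.0482 with the replicate block). Lip-O sham replicate 1 lay closer to the Lip-C arrays than to its own group, and without it 1 gene of this list rose. Mb, myoglobin of muscle, went from 98.9 ± 22.4 to 57.1 ± 10.4, under the 40th percentile, with an adjusted p of 0.0474 (0.0524 with the replicate block) and the call lost without any 1 of the 12 arrays.

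Several groups linked to inflammation and metabolism had no call in limma. These were the 28 measured interferon response genes (median -0.15), 29 chemokines and cytokines (-0.26), 19 immediate early genes (-0.30), 23 antioxidant and metallothionein genes (0.03), 20 cholesterol synthesis genes (-0.23), 36 respiratory chain subunits (-0.05), 21 cell death genes (0.04) and 13 ensheathing and Schwann cell genes (0.14). The medians without Lip-O sham replicate 1 were 0.14 for interferon genes, 0.16 for chemokines and cytokines and -0.11 for immediate early genes. Btg2 of the immediate early genes fell (adjusted p = 0.0296) and Ccl9, a chemokine, rose (adjusted p = 0.0467) in the fit with the replicate block. Among 13 acute phase genes Timp1 was the gene called, and the median was -0.42; without Lip-O sham replicate 1 none passed and the median was 0.30. Fos, an immediate early gene, had signals of 1419.8 on Lip-O sham replicate 1 and 377.4 to 565.6 on all other sham arrays.

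**Figure D4:**
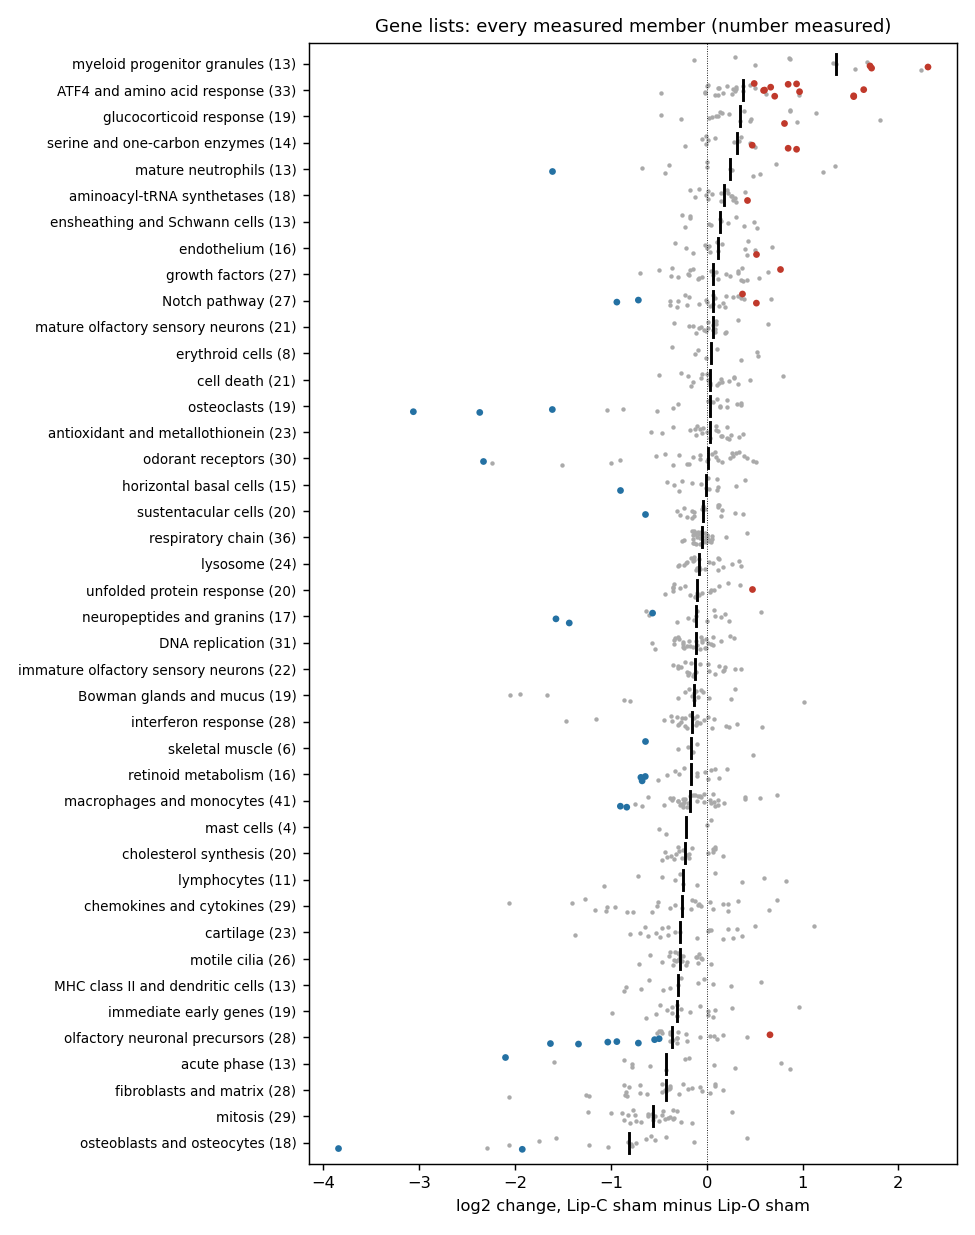
Log2 change (Lip-C sham minus Lip-O sham, horizontal) of each measured member of 42 gene lists (vertical, number measured in brackets), with coloured points past the threshold and black bars at the list medians. Medians run from -0.81 for osteoblasts and osteocytes to 1.35 for myeloid progenitor granules; the osteoclast list has a median near 0 with 3 genes far to the left.

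The same contrast was set beside that of mice without bulbs, whose 6 arrays are separate. There, 47 genes (0.345%) passed. Of the 286 genes called in sham mice, 19 were also called after OBX in the same direction: 4 that rose (Chac1, Asns, Fgf21 and Ms4a3) and 15 that fell. The precursor and peptide genes Neurog1, Neurod1, Hes6, Mfng, St18, Grp, Scg2 and Nmb were among these 15, as were Aldh1a7, Crabp1 and Stil. Neurog1 changed by -1.34 ± 0.15 in sham and -1.45 ± 0.15 in OBX mice, and the difference between these responses was 0.12 ± 0.21 (unadjusted p = 0.584). For Scg2 that difference was -0.12 ± 0.21, for Grp -0.22 ± 0.20 and for Asns -0.03 ± 0.17. It was 0.06 ± 0.17 for Hes6, 0.14 ± 0.15 for Nmb, 0.35 ± 0.19 for Mfng and 0.36 ± 0.26 for Neurod1. St18 fell further after OBX, by 2.03 ± 0.17 against 1.03 ± 0.17 in sham mice. Its difference was 0.99 ± 0.24 (limma unadjusted p = 0.00203, interaction adjusted p = 0.107).

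Bone, matrix and glucocorticoid genes had other values after OBX. Ibsp changed by -1.92 ± 0.21 in sham and -0.69 ± 0.21 in OBX mice, Dmp1 by -3.84 ± 0.68 and -0.52 ± 0.68, and Sfrp4 by -1.28 ± 0.17 and 0.23 ± 0.17. Fkbp5 rose by 0.81 ± 0.17 in sham mice and differed by -0.77 ± 0.17 after OBX, and Ccn2 changed by 1.48 ± 0.25 and -0.16 ± 0.25. The differences between the responses were 1.58 ± 0.23 for Fkbp5, 1.64 ± 0.35 for Ccn2 and -1.51 ± 0.24 for Sfrp4, with interaction adjusted p of 0.0747, 0.0866 and 0.0762. No gene of the 13628 passed the interaction test in limma (lowest adjusted p 0.0747), although 2405 (17.6%) had an unadjusted p under 0.05. Without Lip-O OBX replicate 2, 155 genes passed it, and 3 passed without Lip-C OBX replicate 3. Among the genes called in sham mice, which were chosen on 1 side of this difference, 87 of 175 that rose and 69 of 111 that fell had the same sign after OBX. Their median changes after OBX were -0.01 and -0.12.

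**Figure D5:**
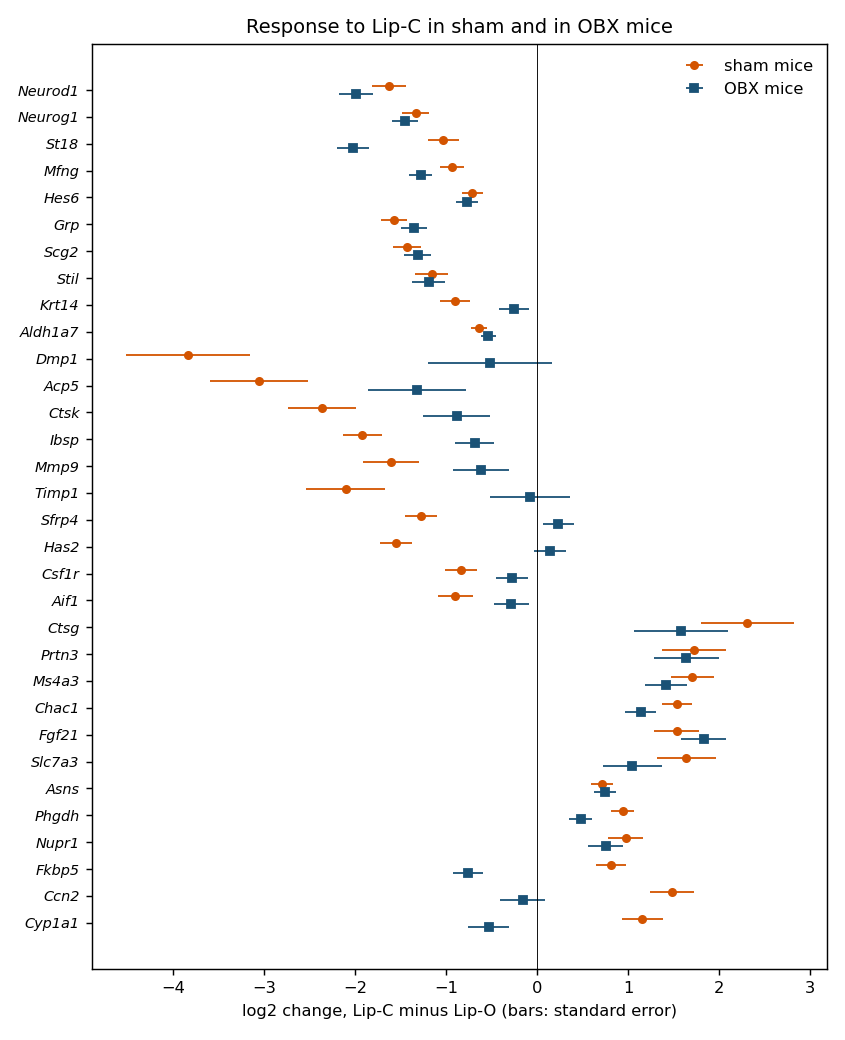
Log2 change with Lip-C (horizontal, bars are standard errors) of 32 genes (vertical) in sham mice (circles) and OBX mice (squares). Neurog1, Neurod1, Grp and Scg2 lie to the left in both, and Chac1 and Fgf21 to the right in both. Fkbp5 is at 0.81 in sham and -0.77 in OBX mice; changes of dim genes such as St18 and Has2 are understated on this scale.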

How the data were processed

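The data deposited by the authors hold linear intensity per probe set for 12 one-colour Affymetrix arrays, scaled to a 2% trimmed mean of 500 on every array. Olfactory epithelium RNA (3 µg per array) was turned into biotin-labelled cRNA, per the labels' protocols. The summary algorithm for probes is not given in the sources used. Median signals of the sham arrays ran from 117.5 to 132.2, and no pair of arrays had more than 0.315% identical values.

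Of 45101 probe sets, 64 controls were left out, and the filter kept 28986 whose signal passed the 40th percentile on 3 or more arrays. By GEO's platform annotation 34945 had 1 gene, 932 several and 9160 none; 34741 matched RefSeq (GRCm38.p6) with unchanged symbols. The probe set of highest mean stood for its gene. For 10 called genes a second probe set went the other way (unadjusted p under 0.05), none of them a gene named here.

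Values were taken as log2(signal + 16), which understates changes of dim genes. The 4 group means were fitted with limma 3.58.1 in R 4.3.3 (8 residual degrees of freedom plus 2.56 from moderation), with two-sided tests and Benjamini-Hochberg adjustment over 13628 genes at 0.05. Log2 changes had a median standard error of 0.124, and the number of arrays limits precision. An exact permutation test of 3 against 3 arrays cannot go below p = 0.1, so none was used. Signals are means ± SD of 3 arrays, errors of log2 changes are standard errors, and folds are ratios of mean signals. Where a group mean lay under the 40th percentile (70.7 on average over sham arrays), signals are given without a fold. The fit was tested on simulated data.

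The sources used do not say whether arrays that share a replicate number across groups belong together. Deviations from the group means of same-numbered Lip-O and Lip-C sham arrays correlated at 0.3269, 0.1223 and 0.1003. Arrays of unlike number were not compared, so these values do not establish a pairing. A fit with the replicate number as a block is given as an alternative where it changes a call. The other alternatives were pseudocounts of 1 and 64, no filter, a 60th percentile filter, quantile normalization, the mean of probe sets, the sham arrays alone and leaving out each array.

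Named genes were the 15 largest called changes in each direction, the called members of each of 42 gene lists with up to 6 further members by p-value, and reference genes for each cell type. Members and lists were chosen with earlier results of these data known.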

Additional observations from a re-analysis of the deposited data

How the results depend on the processing

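The sham comparison gave 286 genes, and with no filter on dim probe sets 56, with a 60th percentile filter 548, and with the 6 sham arrays alone 79. It gave 270 genes with a pseudocount of 1, 399 with a pseudocount of 64, 274 with quantile normalization, 196 with the mean of probe sets and 329 with the replicate block (179 higher, 150 lower). Leaving out 1 array gave 17 to 314. For Lip-C after OBX the count was 47, 72 with a 60th percentile filter, and 7 to 76 without 1 array. The interaction gave 0 genes in limma, 1 with no filter, 85 with a 60th percentile filter and 0 to 155 without 1 array. For the OBX and interaction counts, the pseudocount of 64 and the 60th percentile filter were chosen after seeing the data. Of 308 named genes, 58 were called, and none changed direction in the alternatives that tested it; the 60th percentile filter tested 242 of the 308, and 47 of the 58. Without the filter 37 of the 58 missed the threshold, among them Dmp1, Acp5 and Asns, as did 29 with the 6 sham arrays alone, 21 with the mean of probe sets, 5 under quantile normalization, 6 with a pseudocount of 1 and 31 to 48 without 1 sham array. The fit on the mean of probe sets also ended the calls of Mmp9, Ctsg, Ebf4, Cdh5, Gpx5, AU015791 and Mb (adjusted p from 0.0517 to 0.0606). Apart from Mmp9, these genes kept the log2 change of the reported fit. Their adjusted p thus changed through the other genes in that fit. The replicate block changed no call of a gene given here other than those printed beside it. Each group has 3 arrays, so fits without 1 array rest on 2 in a group, and fewer calls there do not show a smaller effect. The causes of the changed counts were not tested.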
